A study of Homo sapiens with 12 samples.

Results

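The apolipoprotein L genes form a small cluster on human chromosome 22, and the 6 genes named APOL1 to APOL6 were followed here out of 58735 genes in the count table. They were taken by gene symbol. The cluster was chosen by the measured GFI1 effect of APOL3, one of the genes raised most by GFI1, so that the GFI1 effects of the members are described below without a test. The libraries came from A549, an established human lung adenocarcinoma line that normally grows attached to the dish. Attached control cells, attached GFI1-overexpressing cells, and the same pair of lines forced into suspension for 48 hours (floating) made up 4 groups of 3 libraries. GFI1, a zinc-finger repressor of blood cell development, was brought in with a lentivirus in which a human PGK promoter drives GFI1 together with GFP, and GFP-positive cells were sorted as a population before sequencing. Neither the labels nor the methods name a vector for the RNA-Seq controls, so an effect of transduction and one of GFI1 cannot be told apart here. Nothing states that the replicates were separate cultures, and p values may therefore measure technical spread only.

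Apolipoproteins L are lipid-binding proteins that act on membranes. APOL1 is the secreted member, which travels on high-density lipoprotein particles and kills African trypanosomes by opening pores in their membranes, while the other members are intracellular. Several of the genes are known to be raised by interferons and by TNF, and APOL3 is known as an interferon-induced protein that breaks up the membranes of bacteria in the cytosol. GFI1 usually acts as a repressor that recruits histone-modifying complexes to its targets.

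In the coordinates of the deposited table (GRCh38), the 6 genes span 619136 bases, from 35648395 to 36267530. APOL6 (ENSG00000221963, plus strand, 35648395 to 35668409) lies at one end and APOL5 (ENSG00000128313, plus strand, 35717872 to 35729483) next to it. The splicing factor gene RBFOX2 separates these 2 genes from the rest of the cluster. APOL3 (ENSG00000128284, minus strand, 36140330 to 36166177), APOL4 (ENSG00000100336, minus strand, 36189124 to 36204840) and APOL2 (ENSG00000128335, minus strand, 36226203 to 36239954) follow, and APOL1 (ENSG00000100342, plus strand, 36253010 to 36267530) closes the cluster, head to head with APOL2. No other gene of the table overlaps any of the 6. The members are related in sequence, but no stretch of 100 bases in their reference transcripts also occurs in a transcript of another gene. With windows of 50 bases, the share found elsewhere was 4% for APOL1, 1.42% for APOL2, 0.379% for APOL6 and 0.138% for APOL3.

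Total counts ran from 17014188 to 20748677 per library. GFI1 itself had 4 to 12 counts in each control library and 5154 to 12796 in each GFI1 library, and each library thus carried the GFI1 level its label gives. Keratin genes KRT8 and KRT18 were abundant in all 12 libraries, the lowest values being 25961 and 8281 counts, whereas 4 alveolar type 2 markers summed to 0.489 to 2.81 CPM (counts scaled to a common library total, with composition scaling by the TMM method). Among these, NKX2-1, with at most 36 counts, was at 0.208 and 0.356 CPM on average in attached and floating control and at 0.793 and 1.68 CPM in attached and floating GFI1 cells. Among blood cell markers, PTPRC and CD3E had at most 1 count in any library, while CD14 moved with suspension, from 79 to 123 counts in attached to 176 to 229 in floating control libraries and from 73 to 99 to 128 to 131 counts in GFI1 libraries. The 3 fibroblast markers summed to 5.41 to 14.1 CPM, lower in GFI1 than in control libraries of either state, and did not move as one. PDGFRB was at 0.133 and 0.236 CPM in the control groups and at 2.22 and 2.58 CPM in the GFI1 groups, attached first. COL1A1 was at 13.0 and 9.23 CPM in the control groups and at 6.37 and 3.47 CPM in the GFI1 groups. COL1A2 had at most 2 counts in any library. The summed level of 3 endothelial markers moved with GFI1, from 0.109 to 0.602 CPM in control to 3.55 to 5.52 CPM in GFI1 libraries. The summed level of 5 epithelial markers of A549, KRT8 and KRT18 among them, moved too. It was 8307 to 8822 CPM in attached control and 2478 to 2564 CPM in attached GFI1 libraries. In floating cells it was 5296 to 5660 CPM in control and 1894 to 2196 CPM in GFI1 libraries. Of the same markers, CDH1 was at 119.8 and 85.4 CPM in attached and floating control and at 6.45 and 3.99 CPM with GFI1. EPCAM was low and fell from 2.25 and 1.97 CPM to 0.608 and 0.596 CPM. KRT19 was low and went the other way, from 1.11 and 1.90 CPM to 1.97 and 2.80 CPM. The part of all these cell type markers in the results was not tested. Floating GFI1 replicates 2 and 3 differed from each other more than any other replicates, with a chi-square per gene of 10.5 against 1.93 to 4.54, and the suspension effects of APOL1, APOL2 and APOL6 in GFI1-expressing cells are also given without each.

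APOL1, APOL2, APOL6 and APOL3 had enough counts to be tested, and APOL4 and APOL5 did not. In attached control cells, APOL1, APOL2 and APOL6 were all expressed at a moderate level and APOL3 was nearly silent. GFI1 libraries held more mRNA of all 4 in either state, by an amount that differed widely between the genes. Suspension raised APOL1 and APOL2 but not APOL6, and it did so by a larger factor in control cells than in GFI1-expressing cells.

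**Figure D1:**
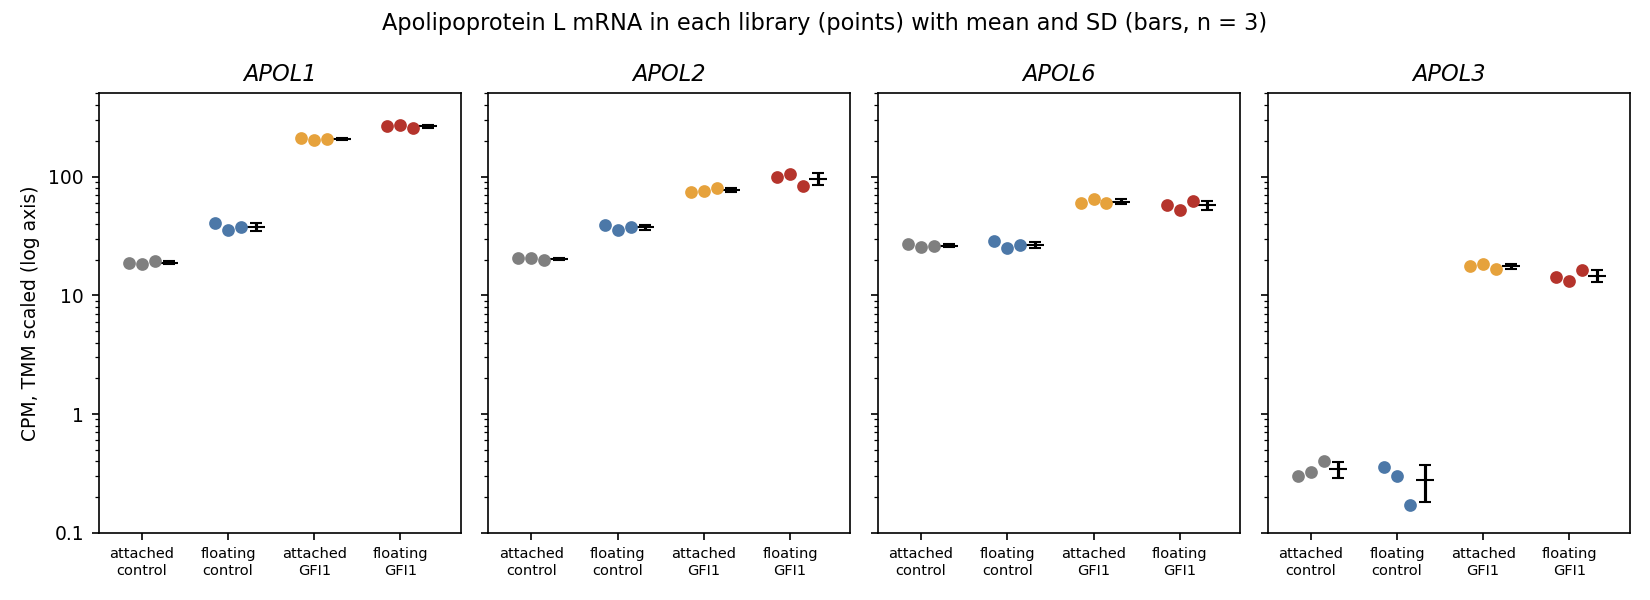
CPM (log axis, the same for all panels) of the 4 apolipoprotein L genes with enough counts, with 1 point per library and the mean and SD (n = 3) beside each group. APOL1 and APOL2 are higher in floating than in attached cells of the same genotype, APOL6 is similar in either state, and APOL3 lies below 0.5 CPM in every control library and between 13.1 and 18.3 CPM in every GFI1 library.

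APOL1 was at 18.6, 18.4 and 19.4 CPM in the 3 attached control libraries and at 41.0, 35.2 and 37.4 CPM in the floating control libraries. In GFI1-expressing cells it was at 210.7, 203.6 and 207.0 CPM when attached and at 265.9, 272.5 and 257.5 CPM when floating. The 4 groups did not overlap at any point, and each GFI1 group lay far above both control groups. Spread was small, with a coefficient of variation from 1.71% to 7.66% within groups.

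APOL2, an intracellular member, was at 20.6, 20.6 and 19.9 CPM in attached and at 38.9, 35.2 and 37.9 CPM in floating control libraries. In GFI1 libraries it was at 74.8, 75.3 and 80.5 CPM in attached and at 99.7, 104.1 and 83.4 CPM in floating cells. The groups were again separate, although floating GFI1 replicate 3 came close to the attached GFI1 libraries.

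APOL6, which has been described as a protein that promotes cell death when it is overproduced, was at 27.2, 25.6 and 25.8 CPM in attached and at 28.4, 24.9 and 26.5 CPM in floating control libraries. In GFI1 libraries it was at 59.9, 64.5 and 60.3 CPM in attached and at 57.4, 52.0 and 62.0 CPM in floating cells. Attached and floating libraries overlapped in either genotype, and every GFI1 library was above every control library.

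APOL3 had 5, 6 and 7 counts in the attached and 6, 5 and 3 counts in the floating control libraries. In GFI1 libraries the counts were 313, 397 and 331 in attached and 259, 238 and 330 in floating cells, which corresponded to 17.6, 18.3 and 16.6 CPM and to 14.3, 13.1 and 16.4 CPM. The floating GFI1 library nearest to the attached ones was replicate 3.

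APOL4 had 4 counts in all, 3 in floating control replicate 1 and 1 in floating control replicate 2. APOL5 had 1 count, in attached control replicate 1. In every other library both genes were at 0, which at this depth allows up to 3 counts per library, or 0.138 to 0.181 CPM. A difference between groups was not detectable for either gene, and these limits cover counting error only.

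Levels of different genes were compared per length, as CPM per kilobase of the gene length in the table. In attached control cells, APOL2 (5.85 ± 0.12 CPM per kilobase) and APOL1 (5.35 ± 0.15) led, APOL6 followed at 2.59 ± 0.09 and APOL3 came far behind at 0.0579 ± 0.0091 (SD, n = 3 each). All of these neighbouring ranks were separate in this group. In floating control cells, APOL1 (10.8 ± 0.8) and APOL2 (10.7 ± 0.6) overlapped, and APOL6 was at 2.63 ± 0.17. In GFI1-expressing cells the order was APOL1, APOL2, APOL6, APOL3 in either state, with no overlap between neighbouring ranks. APOL1 then stood at 58.9 ± 1.0 CPM per kilobase in attached and 75.4 ± 2.1 in floating cells, and APOL3, at 2.97 ± 0.15 and 2.48 ± 0.28, reached about the level that APOL6 had in control cells (SD, n = 3 each).

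The ratio between neighbours therefore shifted. The per-length ratio of APOL1 to APOL2 was 0.896, 0.883 and 0.964 in attached control libraries and 1.04, 0.990 and 0.977 in floating control libraries. It was 2.79, 2.68 and 2.55 in attached and 2.64, 2.59 and 3.06 in floating GFI1 libraries. By this per-length measure, controls thus held nearly equal levels of both genes, and GFI1 libraries held an excess of APOL1. Which transcripts of either gene were expressed was not examined, and their lengths may differ from the gene length used. The ratio of APOL1 to APOL6 ran from 1.97 to 2.16 in attached control, from 4.06 to 4.15 in floating control, from 9.08 to 10.1 in attached GFI1 and from 11.9 to 15.1 in floating GFI1 libraries.

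**Figure D2:**
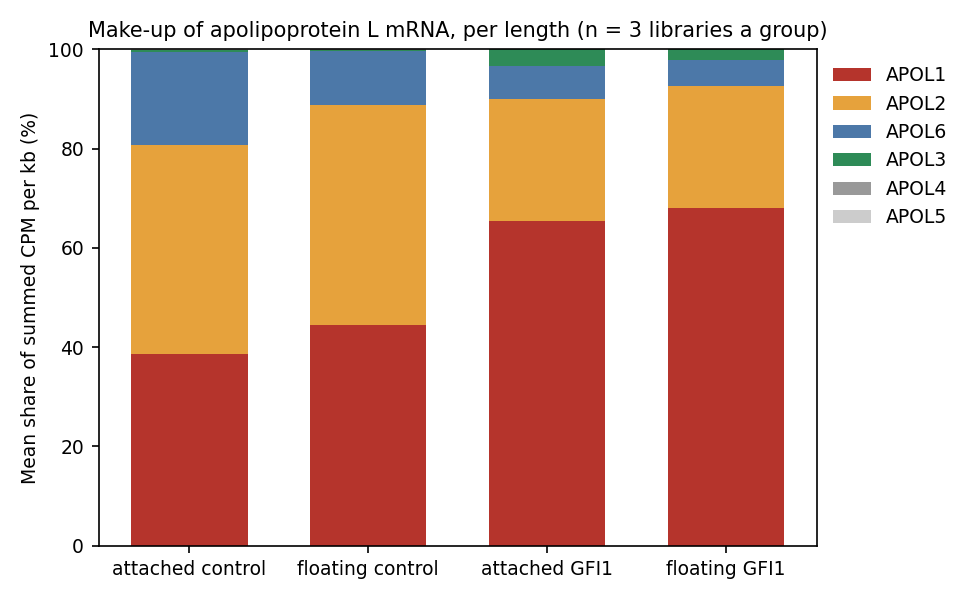
Mean share (in percent) of each gene in the summed CPM per kilobase of the 6 genes, by group (n = 3 libraries each). APOL1 makes up 38.6% of the sum in attached control, 44.5% in floating control, 65.4% in attached GFI1 and 68.0% in floating GFI1 libraries, and APOL3 stays under 4% in all groups.

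Summed over the 6 genes, the level was 13.9 ± 0.1 CPM per kilobase in attached control, 24.2 ± 1.5 in floating control, 90.0 ± 0.9 in attached GFI1 and 111.0 ± 4.5 in floating GFI1 cells (SD, n = 3 each). The share of APOL6 fell across these groups from 18.7% to 10.9%, 6.76% and 5.11%, although its own level was higher with GFI1.

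To see how the cluster responds to loss of attachment, which played no part in choosing the genes, the floating state was set against the attached one within each genotype. The test was the quasi-likelihood F test of edgeR, adjusted by Benjamini-Hochberg over all 17829 genes tested. In control cells, APOL1 was upregulated 2.01-fold (log2 fold change 1.01 ± 0.06 SE, adjusted p 1.66e-12) and APOL2 1.83-fold (0.87 ± 0.08, adjusted p 1.59e-09). APOL6 was at 0.02 ± 0.07 (adjusted p 0.844), with a 95% interval from -0.13 to 0.17. APOL3 had 3 to 7 counts per control library and passed the filter only through the GFI1 groups, so its value of -0.31 ± 0.45 is given without a test. Of the 3 genes with a test here, 2 were higher and 1 did not pass, beside 19.6% of all genes tested that were higher and 40.1% that changed. All floating libraries lay above all attached ones for APOL1 and APOL2, as they did for 24.7% of all genes, and 49.9% had groups that did not overlap in either direction.

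In GFI1-expressing cells, suspension raised APOL1 1.28-fold (0.36 ± 0.04, adjusted p 4.50e-07) and APOL2 1.24-fold (0.31 ± 0.06, adjusted p 0.000246) by the same edgeR test. The APOL1 value was 0.32 without floating GFI1 replicate 2 and 0.38 without replicate 3. The APOL2 value was 0.23 without floating GFI1 replicate 2 (adjusted p 0.00252) and 0.41 without replicate 3 (adjusted p 2.41e-07). APOL6 was at -0.11 ± 0.06 (adjusted p 0.192) with all libraries, at -0.057 (adjusted p 0.557) without floating GFI1 replicate 2 and at -0.17 (adjusted p 0.0351) without replicate 3. The APOL3 value was -0.26 ± 0.10, from -0.35 to -0.20 in the alternative settings, and it has no test because the same GFI1 libraries enter the effect by which APOL3 was chosen. The 2 genes past the threshold, APOL1 and APOL2, compare with 31.3% of all genes tested, 15% higher and 16.3% lower. Attached and floating libraries did not overlap for APOL1 and APOL2, beside 41.4% of all genes, 20.2% higher and 21.2% lower. APOL3, which has no test, is not counted here.

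**Figure D3:**
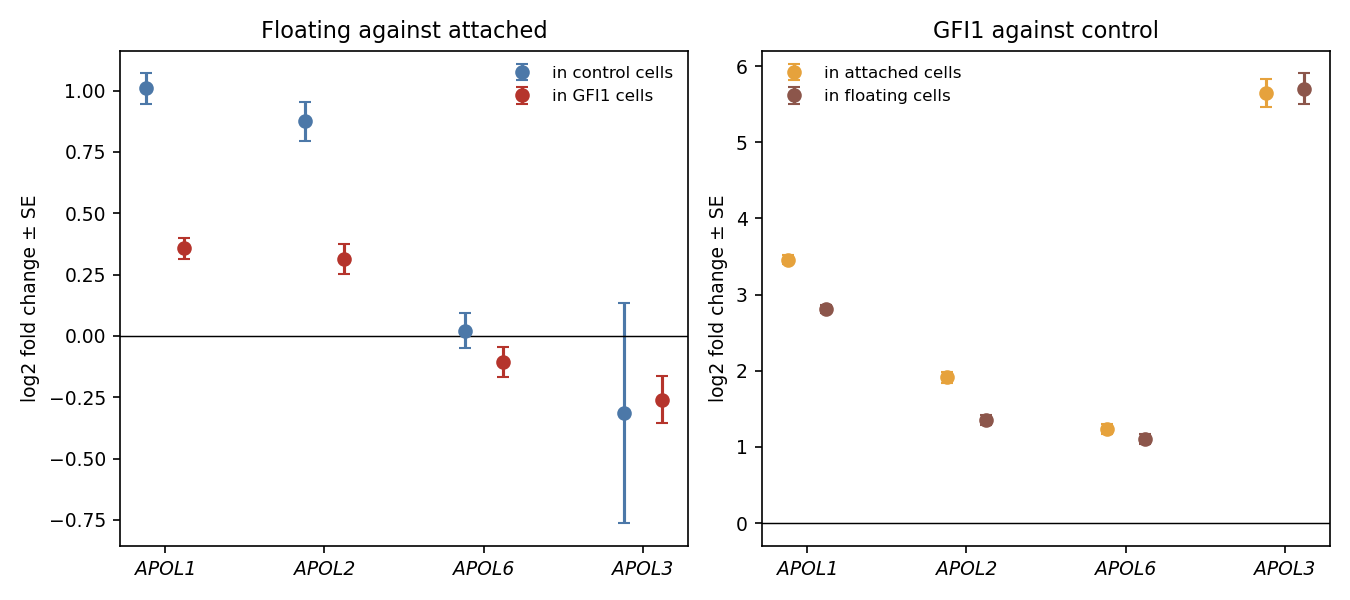
Fitted log2 fold change with its SE for floating against attached cells (left) and GFI1 against control cells (right), with 1 point per gene and cell state or genotype. The suspension effects of APOL1 and APOL2 are higher in control than in GFI1 cells, those of APOL6 lie near 0, and APOL3 has by far the highest GFI1 effect of the 4 genes at 5.65 and 5.70.

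The difference between the 2 suspension effects was then tested as an interaction, which also equals the difference between the GFI1 effects in floating and attached cells. It was -0.65 ± 0.08 for APOL1 (edgeR quasi-likelihood F test, adjusted p 1.33e-06) and -0.56 ± 0.10 for APOL2 (adjusted p 0.000359), so the fold rise with suspension was smaller where GFI1 was expressed. APOL6 was at -0.13 ± 0.09 (adjusted p 0.457, 95% interval from -0.32 to 0.06). The value of APOL3 was 0.05 ± 0.42 and is given without a test, since its GFI1 effect chose it; its sign changed when any of 3 single libraries was left out. Among all genes, 10.8% passed in this comparison, 6.01% lower and 4.76% higher. This difference holds for ratios. In added CPM, suspension brought 19.0 ± 1.7 more of APOL1 in control cells and 58.2 ± 4.8 more in GFI1-expressing cells, and for APOL2 it brought 16.97 ± 1.13 and 18.9 ± 6.6 (difference of means ± SE, n = 3 each). The gain in GFI1-expressing cells without floating GFI1 replicate 2 and without replicate 3, a choice made after seeing the data, was 54.6 ± 4.6 and 62.1 ± 3.9 for APOL1 and 14.7 ± 8.4 and 25.0 ± 2.9 for APOL2, so that the comparison of the APOL2 gains depended on these libraries.

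The GFI1 effects of the members are given as a description. In attached cells, GFI1 over control gave a log2 value of 5.65 ± 0.19 for APOL3, 3.46 ± 0.05 for APOL1, 1.91 ± 0.07 for APOL2 and 1.23 ± 0.07 for APOL6. In floating cells it was 5.70 ± 0.20, 2.81 ± 0.05, 1.36 ± 0.07 and 1.11 ± 0.07 in the same order of genes. APOL3 ranked 40th in attached and 25th in floating cells from the highest among 17829 genes. Because so few counts stand behind APOL3 in the controls, its ratio was also taken from summed counts. It was 51.3 (95% exact interval of the counting error 32.3 to 86.8) from 1041 against 18 counts in attached cells, and 53.6 (31.8 to 98.4) from 827 against 14 counts in floating cells. No group of GFI1 libraries overlapped its control group for any of the 4 genes, a separation also seen in 67% of all genes tested in attached and 64.4% in floating cells, with 32.2% and 31.7% higher. With library totals as the only scaling, the median over all genes tested shifted to 0.14 log2 units in both states and the values of the 4 members rose by a like amount.

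Genes around the cluster were examined to see whether the cluster moved with its surroundings. Of 13 other protein-coding genes within 500000 bases of the cluster or inside it, 12 could be tested. In attached cells GFI1 raised 3 and lowered 7 of them (median log2 fold change -0.20). In floating cells it raised 3 and lowered 8 (median -0.29). Of all genes tested, 62.3% passed in attached cells, 29.5% higher and 32.8% lower, and 60.4% passed in floating cells, 29.3% higher and 31.1% lower, with medians of -0.01 and 0.01. RBFOX2, which lies between APOL5 and APOL3, led the neighbours that fell in attached cells. Its log2 fold change was -1.06 ± 0.05 in attached cells (edgeR quasi-likelihood F test, adjusted p 1.75e-16). In floating cells it was -1.11 ± 0.05 (adjusted p 1.08e-16). MB, the myoglobin gene just outside APOL6, was at -3.44 ± 0.22 when attached (adjusted p 5.92e-13) and -4.18 ± 0.22 when floating (adjusted p 1.38e-14). MYH9, the nonmuscle myosin gene next to APOL1, was higher at 0.79 ± 0.04 and 1.11 ± 0.04 (adjusted p 2.31e-14 and 2.68e-17). HMOX1, which encodes heme oxygenase, was at -1.64 ± 0.07 in floating cells (adjusted p 5.32e-17).

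With suspension of control cells, 3 of the 12 neighbours were higher and 4 lower by the edgeR test, beside 19.6% and 20.5% of all genes. In GFI1-expressing cells 0 were higher and 7 lower, and 16.3% of all genes were lower there. At an unadjusted p under 0.05 the higher count was 0 as well, and DESeq2 called 0, beside 15% of all genes. In control cells TOM1 led the neighbours that rose (0.61 ± 0.08, adjusted p 3.01e-07), and MYH9, the next gene to APOL1, fell (-0.79 ± 0.04, adjusted p 2.66e-13) while APOL1 rose. MCM5, a replication licensing gene, led those that fell in GFI1-expressing cells (-1.02 ± 0.06, adjusted p 1.81e-12). The 7 lower neighbours in GFI1-expressing cells became 4 without the low-count filter and 4 without attached GFI1 replicate 1.

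**Figure D4:**
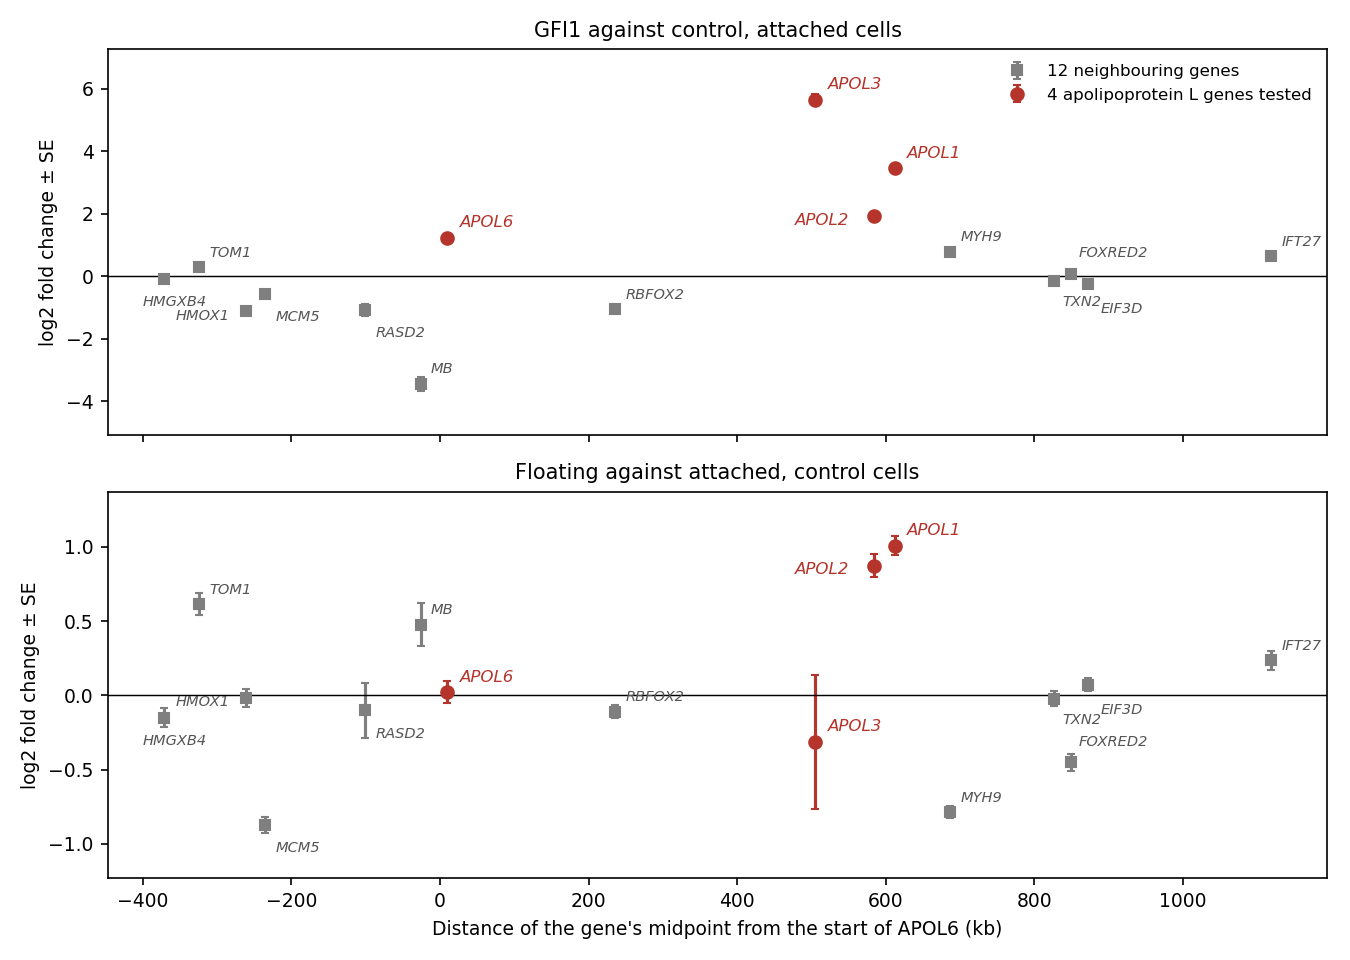
Fitted log2 fold change ± SE of the 4 apolipoprotein L genes tested (red circles) and 12 neighbouring protein-coding genes (grey squares) by the distance of their midpoint from the start of APOL6 in kilobases. The upper panel shows GFI1 against control in attached cells and the lower one floating against attached in control cells. Members stand above all of the neighbours in the upper panel, and APOL1 and APOL2 do so in the lower panel. The cluster was chosen by the GFI1 effect of APOL3, so the place of the members in the upper panel is a description only.

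Since interferons are known inducers of the cluster, the ligands and the signalling chain were read beside it. Among 8 interferon genes, IFNE and IFNA1 could be tested. IFNG was at 0 in all 12 libraries, and IFNB1, IFNK, IFNL1, IFNL2 and IFNL3 had at most 3 counts in any library. In control cells, suspension raised IFNE (0.65 ± 0.16, edgeR adjusted p 0.00234) and IFNA1 (1.26 ± 0.38, adjusted p 0.00940). IFNA1 had at most 19 counts in a library and has close relatives that can share its reads. With GFI1, neither passed in attached cells (IFNE 0.34 ± 0.17, adjusted p 0.0813), though 1 of them passed as higher in 4 of 19 alternative settings (library size only, and without attached control replicate 3, attached GFI1 replicate 2 or floating GFI1 replicate 1), and IFNA1 was lower in floating cells (-1.16 ± 0.37, adjusted p 0.00863).

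Receptors, kinases and transcription factors of the interferon pathway did not move as one. All 17 listed genes were tested. As a baseline, 29.5% of the 17829 genes went up with GFI1 and 32.8% went down in the attached state (median -0.01). In the floating state 29.3% went up and 31.1% down (median 0.01). Of the 17 listed genes, GFI1 raised 9 and lowered 5 in attached cells (median 0.56). It raised 11 and lowered 4 of them in floating cells (median 0.73). The difference of the list from the baseline was not tested. IRF1, a transcription factor that interferon induces, led those that rose, at 3.11 ± 0.05 in attached and 2.90 ± 0.05 in floating cells (edgeR adjusted p 1.21e-24 and 4.77e-24). IFNGR1, a chain of the receptor for interferon gamma, led those that fell, at -1.63 ± 0.06 and -2.11 ± 0.06 (adjusted p 7.53e-18 and 2.87e-20).

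STAT2 and IRF9, transcription factors of the type I interferon response, were named after their values were seen. In attached cells, their GFI1 effects were 1.25 ± 0.06 and 2.06 ± 0.18 (edgeR adjusted p 1.37e-15 and 3.75e-10). With suspension of control cells, STAT2 (0.30 ± 0.06, adjusted p 0.000413) and IRF9 (0.71 ± 0.22, adjusted p 0.0103) rose.

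With suspension of control cells, 7 of the 17 pathway genes were higher and 3 lower, beside 19.6% and 20.5% of all genes tested. The 7 became 4 when floating control replicate 3 was left out. IRF1 was at -0.03 ± 0.06 there (adjusted p 0.721). IFNGR1 led the genes that rose (0.43 ± 0.05, adjusted p 2.62e-07) and JAK1, a receptor-bound kinase, those that fell (-0.56 ± 0.05, adjusted p 3.24e-10). In GFI1-expressing cells, suspension left 2 higher and 5 lower, beside 15% and 16.3% of all genes tested. IFNGR2, the second chain of the same receptor, led the former (0.38 ± 0.07, adjusted p 6.15e-05), and IRF1 led the latter (-0.24 ± 0.04, adjusted p 9.60e-05). In the interaction 1 was higher and 2 were lower, with JAK1 (0.33 ± 0.06, adjusted p 0.000838) and IFNGR1 (-0.48 ± 0.09, adjusted p 0.000376) leading. Of all genes tested, 4.76% were higher and 6.01% lower there. The 1 higher became 2 without floating GFI1 replicate 2 or without the low-count filter. The 2 lower became 4 without floating GFI1 replicate 3, and 1 without attached control replicate 3, attached GFI1 replicate 2 or 3, or floating control replicate 1.

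Guanylate-binding proteins, interferon-induced GTPases that coat bacteria in the cytosol on which APOL3 acts, were split. Of 7 genes 4 could be tested, of which 2 were higher and 2 lower with GFI1 in either state. The GFI1 effect passed for 62.3% of the 17829 genes when attached (29.5% up and 32.8% down). When floating it passed for 60.4% (29.3% up and 31.1% down). The split of these 4 genes was not tested against such shares. GBP3 was at 2.79 ± 0.10 in attached and 2.52 ± 0.10 in floating cells (edgeR adjusted p 2.61e-18 and 2.68e-17), and GBP2 at -2.22 ± 0.20 and -2.46 ± 0.19 (adjusted p 5.41e-10 and 1.96e-11). GBP4 had 0 to 2 counts in each control library, 82 to 98 in each attached GFI1 library and 57 to 78 in each floating GFI1 library. With suspension of control cells GBP2 passed (0.54 ± 0.15, adjusted p 0.00658). In GFI1-expressing cells edgeR called 0 of the 4, beside 31.3% of all genes tested. DESeq2 also called 0, and at an unadjusted p under 0.05 edgeR had 0 higher and 1 lower.

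To place each member among all protein-coding genes, the 3 genes with the highest Pearson correlation to it across the 12 libraries (log2 CPM) were listed. The points share 4 groups, so that these values describe a likeness of group levels and have no test. Closest to APOL1 were CAPN5 (r = 0.999), HLA-B (0.999) and HDAC5 (0.998). HLA-B, which presents peptides to T cells, was at 4.11, 64.4, 9.12 and 78.8 CPM on average in attached control, attached GFI1, floating control and floating GFI1 cells. APOL2 was most like BTG1 (0.996), ATG2B (0.995) and LAMB2 (0.995), of which BTG1, an antiproliferative gene, was at 83.2, 479.0, 187.8 and 625.7 CPM in the same groups. APOL3 was nearest to PARP10 (0.999), SVIP (0.998) and UBA7 (0.998). UBA7, the activating enzyme for the ubiquitin-like protein ISG15, was at 1.33, 44.8, 1.18 and 43.8 CPM. APOL6 was nearest to PARP9 (0.997), ISG15 (0.996) and PARP14 (0.996), with ISG15 at 7.56, 90.1, 6.76 and 68.1 CPM.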

How the data were processed

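Poly-A RNA from A549 cells gave 12 libraries, read on a NovaSeq instrument. The deposited values are raw counts per gene. In the methods, the authors aligned to GRCh38 by Hisat2 and counted by featureCounts, whereas their processing notes list Bowtie2 and HTSeq. Strandedness and the annotation release are not given in the sources used here, and whether reads matching several genes were counted is not known. Gene lengths were taken from the deposited table.

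The tests used edgeR 4.0.16 (R 4.3.3). The filterByExpr filter was applied (minimum count 10, minimum total 15), which left 17829 genes. Libraries were scaled by TMM, and a quasi-likelihood model with a mean for each of the 4 groups was used. Each of 5 contrasts was adjusted on its own by Benjamini-Hochberg (two-sided, threshold 0.05). SE values come from the fold change and its F statistic. Log2 CPM used a prior count of 2. DESeq2 1.42.0, other scalings and filters, the compared groups alone, a replicate block and leaving out each library were alternatives. The members and lists were chosen with earlier results of these data known. Apart from the members, text names GFI1, the gene with the lowest adjusted p per list, contrast and direction, the nearest neighbours of the cluster, the 3 genes most like each member, and a few genes said to be chosen later. Cell type markers, interferon genes and GBP4 are named as well. Shared windows were counted on the given strand in GENCODE v44 transcripts. The suspension effects of APOL3 were planned as tests and are given without one. The code was tested on simulated data.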

Additional observations from a re-analysis of the deposited data

Results flagged for a closer look

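The suspension effects of APOL1 and APOL2 differed between control and GFI1-expressing cells by the interaction test of edgeR, with a log2 difference of -0.65 for APOL1 and -0.56 for APOL2. Every floating library was above every attached library of the same genotype for both genes. The same was seen for 24.7% of all genes tested in control cells and 20.2% in GFI1-expressing cells. For APOL2 in GFI1-expressing cells the lowest floating value was 83.4 CPM and the highest attached one 80.5 CPM. The direction of the interaction held in all 18 alternative settings. It ran from -0.70 to -0.59 for APOL1 and from -0.64 to -0.47 for APOL2, with adjusted p at most 2.00e-05 and 0.00229. It is a difference of ratios, and the added CPM of APOL1 was 19.0 ± 1.7 in control and 58.2 ± 4.8 in GFI1-expressing cells.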

How the results depend on the processing

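The suspension effects of APOL1 and APOL2 and their interaction kept direction and call in all settings run. The number of members past the threshold ranged from 2 to 4 for suspension of GFI1-expressing cells when single libraries were left out. This is a count that includes APOL3, for which the text gives no test, and APOL6, which passed without floating GFI1 replicate 3. With at least 10 counts in every library APOL3 could not be tested. The GFI1 effect of APOL3 in attached cells was 5.80 with library size only, and leaving out 1 library at a time gave 5.56 to 5.77. In floating cells this range was 5.45 to 5.93.

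For suspension of control cells, APOL6 ran from -0.029, a change of sign without floating control replicate 1, to 0.064 with single libraries left out. The interaction value of APOL3 ran from -0.20 to 0.28, and turned to -0.071 without attached control replicate 3, -0.20 without floating control replicate 3 and -0.039 without floating GFI1 replicate 3. For the GFI1 effect, scaling by library size only made 61.5% of calls higher in place of 47.4% (attached) and 61.4% in place of 48.5% (floating). Same-numbered libraries did not deviate together, with correlations from -0.03 to 0.03 over 18 pairs, and 10 of 36 best matches carried the same number. The replicate block called 7110 genes for suspension of control cells against 7152, and the members called were 2 there, 2 in GFI1-expressing cells and 2 for the interaction. Depth limits APOL3 in controls, APOL4 and APOL5.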

Other observations

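Apolipoproteins outside the L family were read in the same way. Of 17 listed genes (HPR, a partner of APOL1 on lipoprotein particles, included) 7 could be tested, of which 1 was higher and 3 lower with GFI1 in either state, beside 29.5% and 32.8% of all genes tested in attached and 29.3% and 31.1% in floating cells. APOH, a phospholipid-binding plasma protein, was at -2.40 ± 0.12 when attached and -2.55 ± 0.10 when floating (quasi-likelihood F test of edgeR, adjusted p 2.17e-15 and 4.56e-17), and APOD, a small lipid carrier, at 2.17 ± 0.27 and 1.04 ± 0.21 (adjusted p 1.15e-07 and 0.000131). Suspension raised APOD in control cells (1.63 ± 0.29, adjusted p 5.42e-05), and the value in GFI1-expressing cells was 0.50 ± 0.19 (adjusted p 0.0512). It raised APOH in control (0.80 ± 0.09, adjusted p 4.67e-08) and in GFI1-expressing cells (0.65 ± 0.14, adjusted p 0.000747). It lowered APOO, a mitochondrial inner membrane protein, in control cells (-0.23 ± 0.06, adjusted p 0.00449) and in GFI1-expressing cells (-0.30 ± 0.08, adjusted p 0.00400). APOC1 was lowered in GFI1-expressing cells (-0.80 ± 0.19, adjusted p 0.00155). The interaction of APOD (-1.13 ± 0.35, adjusted p 0.0379) was not called in 12 of 18 alternative settings.

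Of 12 TNF and NF-kB response genes 10 could be tested, and with GFI1 8 were lower and 1 higher in either state, with medians of -0.97 and -0.90. The same all-gene shares stand beside these counts, and the difference from them was not tested. CXCL8, a neutrophil chemokine, was at -1.28 ± 0.06 and -1.69 ± 0.06 (edgeR adjusted p 6.05e-16 and 2.05e-18), and the inhibitor gene NFKBIA at 0.35 ± 0.05 and 0.32 ± 0.05 (adjusted p 8.48e-07 and 2.37e-06). With suspension of control cells 4 were higher and 1 lower, beside 19.6% and 20.5% of all genes tested. NFKBIA rose (0.51 ± 0.05, adjusted p 6.79e-09) and the chemokine CCL2 fell (-1.41 ± 0.22, adjusted p 9.16e-06). In GFI1-expressing cells 3 were higher, beside 15% of all genes tested, led by NFKBIA (0.47 ± 0.05, adjusted p 2.16e-08).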
